A study of Mus musculus with 2 samples.

Results

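TRIM proteins (tripartite motif) carry a RING domain, a B-box and a coiled coil, and most of them work as ubiquitin ligases. One part of the family is switched on by interferons and acts in the sensing or restriction of viruses, and other parts act in chromatin silencing, on microtubules, in muscle or in nerve cells. In mice, several of the antiviral members lie side by side as recent gene copies. Microglia, the resident macrophages of the brain, respond to interferon with broad changes in transcription. Genes whose symbol is Trim followed by a number and at most 1 letter were collected from the feature list of 31053 genes. Of 68 such symbols, 40 had at least 20 UMIs (unique molecular identifiers, tags that count captured transcripts once each) over all 6272 barcodes and form the group described here. Of the 28 others, 12 had no UMI at all. The member nearest the limit was Trim9 with 24 UMIs, and the nearest symbol outside it was Trim6 with 15. These total UMIs chose the members, so the presence of the 40 is not a result.

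Tissue around the cribriform plate, the sieve-like bone under the olfactory bulb, was broken up mechanically and its cells sorted, with olfactory bulb and some nasal mucosa included. They came from 10-week-old female wild-type C57BL/6J mice, either healthy or with EAE (an autoimmune encephalomyelitis provoked in the animal and used as a model of multiple sclerosis), as 1 pool of 5 mice per condition. The gate took cells positive for podoplanin and CD31 and negative for CD45 and the dead-cell dye, and the labels call them meningeal lymphatic endothelial cells. Barcode suffixes 1 and 2 mark the 2 libraries within the matrix, but no label or header used here gives the condition of either suffix. They are called library 1 and library 2, and neither is read as EAE or healthy. With 1 library on each side there is no replicate and no test: every difference compares these libraries or sets of cells within them, and every 95% interval covers counting error only.

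Library 1 held 3838 barcodes and 26269168 UMIs, and library 2 held 2434 barcodes and 21272560 UMIs. Barcodes showing 200 or more genes, with mitochondrial UMIs making up 20% or less, passed as cells, 3406 and 1922 in number, with medians of 7334 and 9782.5 UMIs. The RNA went against the labelled cell type. Cells with a UMI of 4 or more of 7 microglia markers made up 96.3% of those kept in library 1 (3281) and 91.1% in library 2 (1750), whereas 4 cells of library 1 and none of library 2 had 3 or more of the lymphatic markers. Pdpn, the podoplanin gene, had 30 and 6 UMIs, and Pecam1, the gene of CD31, had 510 and 122. Ptprc, the gene of CD45, had 7712 and 4736. The lymphatic regulator Prox1 had 380 and 127. The TRIM levels given here are therefore mainly levels in cells with microglia transcripts. The libraries shared 8 barcode sequences, 7 of which were kept in both.

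A list of 15 TRIM genes known as interferon-inducible or as parts of antiviral sensing was used to divide the family, and 13 of them were members. They are Trim5, Trim12a, Trim12c, Trim14, Trim21, Trim25, Trim26, Trim30a, Trim30b, Trim30c, Trim30d, Trim34a and Trim56. The other 2 were Trim34b with 2 UMIs and Trim38 with none. In the gene order of the RefSeq annotation, Trim6, Trim34a, Trim5, Trim12a, Trim34b and Trim12c follow each other, as do Trim30b, Trim30c, Trim30a and Trim30d. Promoter windows from 250 bases before to 50 after each RefSeq start (GRCm38.p6) were at hand for 31 of the 40 members. None was matched for Trim3, Trim8, Trim11, Trim14, Trim16, Trim33, Trim35, Trim36 and Trim65. Windows were searched on both strands for GAAANNGAAA, a core of the element bound by interferon-activated STAT and IRF factors, which reads TTTCNNTTTC on the opposite strand. The motif stood in 8 of the 12 listed members with a window (66.7%) and in 1 of the 19 others (5.26%), Trim2. Of all 27025 genes with a window, 3.99% held it.

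Stretches of these windows are shown for 8 listed members that hold the motif, since their letters show which copies share it. They run 5′ to 3′ along the gene's strand, with the matched letters in capitals. Trim30a has 2 starts with a match, and Trim30d carries the same letters in the same surroundings as its more distal start.
Trim30a (chr7:104465194-104465273, minus strand, the 80 bases before a start): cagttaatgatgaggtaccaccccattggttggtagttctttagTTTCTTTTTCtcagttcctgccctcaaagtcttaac
Trim30a (chr7:104446104-104446133, minus strand, across another start): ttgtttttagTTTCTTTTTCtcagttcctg
Trim30d (chr7:104507850-104507929, minus strand, the 80 bases before the start): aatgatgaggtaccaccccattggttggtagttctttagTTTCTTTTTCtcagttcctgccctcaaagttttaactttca
Trim5 (chr7:104288107-104288186, minus strand, the 80 bases before the start): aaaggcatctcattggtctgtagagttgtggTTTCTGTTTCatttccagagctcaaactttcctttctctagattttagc
Trim12c (chr7:104353350-104353429, minus strand, the 80 bases before the start): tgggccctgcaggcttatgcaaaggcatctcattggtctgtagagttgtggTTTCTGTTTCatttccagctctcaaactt
Trim12a (chr7:104315466-104315495, minus strand, the first 30 bases after the start): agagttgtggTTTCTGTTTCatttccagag
Trim34a (chr7:104244457-104244486, plus strand, the first 30 bases after the start): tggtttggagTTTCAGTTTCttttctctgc
Trim21 (chr7:102565447-102565476, minus strand, after the start): ctgagagGAAACTGAAAGTGAAAtttggac
Trim26 (chr17:36836966-36837045, plus strand, before the start): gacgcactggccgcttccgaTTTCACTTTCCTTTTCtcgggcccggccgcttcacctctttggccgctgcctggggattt

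Trim5, Trim12a and Trim12c thus share 1 stretch around the match, at 49 bases before the start of Trim5, 29 before that of Trim12c and just after that of Trim12a. Trim21 and Trim26 each hold 2 overlapping matches, those of Trim26 lying 160 and 154 bases before the start. Another 3 listed members are shown because they have no match in the window although their levels were higher in cells with a high interferon score, as described further on, for Trim30b beyond counting error in library 2 only. They are Trim25 and the copies Trim30b and Trim30c. Trim56 also has no match but is not shown. With the same score it was 1.30-fold (1.03 to 1.65) higher in library 2, and its interval in library 1 included 1. For all of these, no match says only that the letters are not in this window.
Trim25 (chr11:88999323-88999402, plus strand, the 80 bases before the start): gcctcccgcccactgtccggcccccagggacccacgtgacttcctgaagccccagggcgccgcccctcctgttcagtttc
Trim30b (chr7:104358647-104358726, minus strand, the 80 bases before the start): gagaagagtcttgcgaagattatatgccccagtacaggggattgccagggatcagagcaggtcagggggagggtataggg
Trim30c (chr7:104400779-104400858, minus strand, the 80 bases before the start): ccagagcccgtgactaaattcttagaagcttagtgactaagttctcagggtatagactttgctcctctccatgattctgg
The motif of interferon gamma activated sites, TTCNNNGAA, stood in the windows of Trim30c and Trim45 only, against 9.55% of all genes. A match describes the letters and was not tested as a binding site.

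The gene copies limit how far single values can be told apart. Of the distinct 50-base stretches of Trim34a transcripts, 39.8% also occur in another gene, Trim34b. The share was 36.3% for Trim5 and 33.0% for Trim12c, mostly with each other, and 10.4% for Trim12a. It was 5.98% for Trim30a and 7.49% for Trim30d, and below 1% for Trim30b and Trim30c. The handling of reads shared by copies is not stated in the sources used here, and the levels of Trim5, Trim12c and Trim34a are therefore uncertain.

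Between the libraries, the interferon-listed members were mostly higher in library 2 and the rest of the family mostly was not. Levels are counts per 1000000 UMIs of the kept cells (CPM), not scaled by transcript length, so they are compared between cells and not between genes. Of the 40 members, 15 were at least 2-fold higher in library 2 (37.5%), against 14.6% of all 14118 genes with at least 20 UMIs. Only Trim47 and Trim16 were at least 2-fold lower, against 8.5% of all genes. The listed members supplied 11 of the 15, and the exceptions on the list were Trim26 and Trim30c. Off the list, 4 of 27 were at least 2-fold higher. The median log2 ratio of library 2 over library 1, with 10 CPM added to both, was 0.80 over the listed members, -0.04 over the others and 0.02 over all genes. In sum, TRIM transcripts made up 1138 and 1311 CPM, the listed ones 287 and 697 CPM of that.

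Trim30a (ENSMUSG00000030921), an interferon-induced brake on inflammatory signalling, stood at 55.0 CPM in library 1 (52.1 to 57.9) and 206 CPM in library 2 (200 to 213), a 3.75-fold difference (3.53 to 3.99). In microglia-marker cells it had a UMI in 30.0% of cells of library 1 and 81.0% of cells of library 2. With each cell thinned to 1000 UMIs, those shares were 4.83% of 3253 cells and 20.2% of 1748. Its share in cells with olfactory neuron markers in library 2 was 2.70%, 1 of 37 cells, at a median depth of 11047 UMIs against 9915 in the microglia-marker cells. Its neighbour copies went the same way by different amounts. Trim30b (ENSMUSG00000052749) stood at 3.42 and 11.5 CPM, 3.36-fold, and Trim30d (ENSMUSG00000057596) at 31.8 and 66.0 CPM, 2.08-fold. Trim30c (ENSMUSG00000078616) differed least of the 4, with 5.08 and 7.30 CPM, 1.44-fold (1.13 to 1.83).

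The 4 members around Trim5, relatives of the retroviral restriction factor TRIM5, were more than 2-fold higher in library 2. Their neighbours Trim6 and Trim34b, with 15 and 2 UMIs, are not members. Trim12a (ENSMUSG00000066258) stood at 43.0 and 111 CPM, 2.58-fold, and Trim12c (ENSMUSG00000057143) at 13.8 and 43.5 CPM, 3.16-fold. Trim5 (ENSMUSG00000060441) stood at 7.22 and 18.1 CPM, 2.51-fold. Trim34a (ENSMUSG00000056144) stood at 9.63 and 31.6 CPM, 3.28-fold. No interval of these 4 ratios reached down to 2, the lowest bound being 2.10 for Trim5.

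Among the members of nucleic acid sensing, Trim25 (ENSMUSG00000000275), the ligase of the RIG-I pathway, stood at 15.3 and 33.9 CPM, 2.22-fold (1.96 to 2.52). Trim14 (ENSMUSG00000039853), an adaptor of antiviral signalling, stood at 10.4 and 29.2 CPM, 2.80-fold. Trim56 (ENSMUSG00000043279), which acts in DNA sensing, stood at 11.1 and 25.3 CPM, 2.28-fold (1.97 to 2.65). Trim21 (ENSMUSG00000030966), a cytosolic receptor for antibody, stood at 8.58 and 18.3 CPM, 2.14-fold (1.81 to 2.54). Trim26 (ENSMUSG00000024457) stood at 72.4 and 94.4 CPM, only 1.30-fold. The intervals of Trim25, Trim56, Trim21 and Trim30d include 2. Trim14 overlaps Nans on the opposite strand, and reads of the 2 cannot be told apart unless strand was used in counting.

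**Figure D1:**
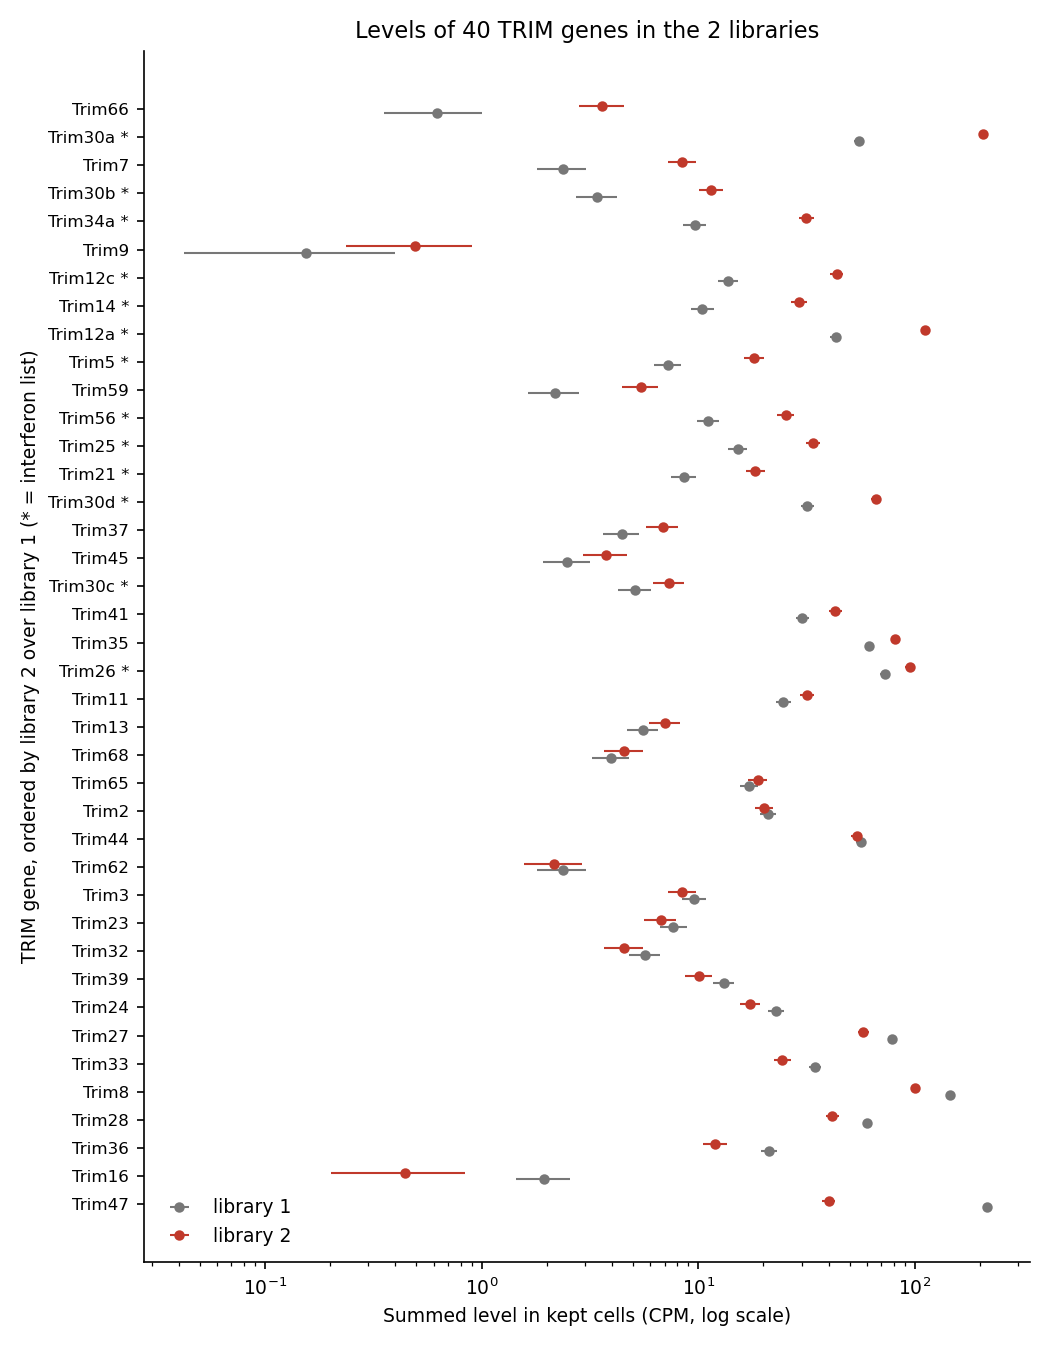
Summed level in kept cells (CPM, log axis) of each of the 40 TRIM members in library 1 (grey) and library 2 (red), with exact Poisson 95% intervals, ordered by the ratio of library 2 over library 1; a star marks the 13 members of the interferon list. Of those, 11 lie at least 2-fold higher in library 2, and Trim47, at the foot, was 5.39-fold lower there.

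Outside the list, 4 members were at least 2-fold higher in library 2. Of the genes off the list named here and further on, Trim2, Trim7, Trim9, Trim16, Trim24, Trim28, Trim33, Trim37 and Trim65 were chosen after their values were seen. Trim3 and Trim32, named below for their NHL repeats, were also outside the rule for named members. Trim7 stood at 2.37 and 8.43 CPM, 3.56-fold, on 61 and 171 UMIs. Trim59 (ENSMUSG00000034317), a membrane-bound member linked to dividing cells, stood at 2.17 and 5.42 CPM, 2.50-fold. Trim66 and Trim9 are low genes with 16 and 73 UMIs, and 4 and 10 UMIs. The interval of Trim9, 3.18-fold (0.916 to 13.9), includes no difference. Trim47 (ENSMUSG00000020773) went the other way and had the most UMIs of the family. It stood at 215 CPM in library 1 (210 to 221) and 39.9 CPM in library 2 (37.2 to 42.8), 5.39-fold lower in library 2 (5.00 to 5.81), with a UMI in 61.4% and 30.0% of kept cells. Trim47 overlaps Trim65 on the same strand and shares 6.58% of its 50-base stretches with it. Trim65 itself stood at 17.2 and 18.8 CPM. Trim16 stood at 1.94 and 0.444 CPM, on 50 and 9 UMIs.

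The remaining well-covered members differed less than 2-fold. Trim8 (ENSMUSG00000025034), a modulator of cytokine signalling, stood at 145 and 100 CPM, and Trim27 at 78.3 and 57.9 CPM. Trim35 stood at 61.6 and 81.2 CPM. The chromatin cofactors Trim28, Trim24 and Trim33 stood at 60.3, 22.9 and 34.6 CPM in library 1, against 41.6, 17.4 and 24.5 CPM in the other. Of the 4 genes of that class, Trim66 alone was at least 2-fold higher in library 2, mostly from olfactory neuron marker cells, as described further on. None of the 3 members with NHL repeats was past 2-fold, namely Trim2, Trim3 and Trim32. Among all genes 14.6% were at least 2-fold higher and 8.5% lower, so counts over so few genes set neither class apart. TRIM proteins whose genes carry other names were counted apart from the members. Pml, the organiser of nuclear bodies and itself interferon-induced, stood at 6.60 and 39.0 CPM, 5.90-fold higher in library 2. With the type I score described next it was 1.07-fold higher in library 1 and 2.11-fold (1.74 to 2.56) in library 2. Mid1, a microtubule-bound member, stood at 89.0 and 32.6 CPM. Mefv, the pyrin gene, had 4 and 14 UMIs and Mid2 had 8 and 7.

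The libraries differed in much else, so the family was next ranged within each library. Each microglia-marker cell was thinned to 2000 UMIs, leaving out 70 and 3 shallower cells, and its UMIs of 28 type I interferon response genes, none of them a TRIM gene, were counted as its score. In library 1 the 1669 cells with a score of 0 were compared with the 1542 cells above it. In library 2 the 568 cells with at most 5 were compared with the 496 cells with at least 11. The score genes summed to 206 and 886 CPM in the low and high cells of library 1, and to 2522 and 7206 CPM in those of library 2. The low cells of library 2 thus stood above the high cells of library 1.

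By the rule set for this comparison, at least 2-fold higher in the high cells of both libraries, no member qualified, against 0.747% of all genes tested in both. In library 1, 1 of 38 members tested was at least 2-fold higher, Trim59, against 3.07% of all genes. In library 2, 2 of 36 were, Trim30b and Trim30c, against 2.15%. No member was at least 2-fold lower in either library, against 0.266% and 0.995% of all genes. For scale, the score genes themselves, each ranged by the part of the list it was not in (the list was split in 2), had median folds of 5.60 in library 1 (26 genes) and 2.67 in library 2 (28 genes). The listed members had medians of 1.28 and 1.35, the members off the list 0.97 and 0.92. The log2 medians over all genes tested were -0.00 and -0.02.

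At a smaller size of 1.25-fold in both libraries, a limit chosen after the values were seen, 8 of 36 members passed, against 3.84% of all genes. All 4 Trim30 copies were among them, together with Trim25, Trim34a, Trim12c and, off the list, Trim59. At 1.5-fold only Trim30c passed, against 1.92%. Trim30a stood at 45.1 CPM in the low and 67.6 CPM in the high cells of library 1, 1.50-fold (1.35 to 1.67), and at 157 and 291 CPM in library 2, 1.86-fold (1.72 to 2.02). Trim30d stood at 28.5 and 36.4 CPM in library 1, 1.28-fold, and at 50.5 and 97.0 CPM in library 2, 1.92-fold (1.67 to 2.22).

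The lower copies showed larger folds with wider intervals. Trim30c had 44 and 87 UMIs in the low and high cells of library 1, 1.998-fold (1.37 to 2.94), and 24 and 75 in library 2, 3.20-fold (1.9996 to 5.31). Trim30b had 35 and 49 UMIs in library 1, 1.41-fold (0.898 to 2.25), and 36 and 110 in library 2, 3.13-fold (2.13 to 4.70). The interval of Trim30b in library 1 includes no difference. Trim30c reached 2-fold in both libraries under 3 of 9 alternative settings, and Trim30a and Trim30b under 1 each.

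Trim25 stood at 12.4 and 16.8 CPM in library 1, 1.36-fold (1.10 to 1.68), and at 26.3 and 45.6 CPM in library 2, 1.74-fold (1.42 to 2.13). Trim34a stood at 8.58 and 11.1 CPM, 1.29-fold (0.996 to 1.68), and at 25.1 and 42.3 CPM, 1.69-fold (1.37 to 2.09). Trim12c stood at 10.2 and 17.0 CPM, 1.66-fold, and at 39.6 and 52.5 CPM, 1.33-fold. Its neighbour Trim12a moved by 1.28-fold and 1.21-fold, with both intervals above 1.

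Other listed members differed less between these sets. Trim21 was 1.11-fold and 1.35-fold higher in the high cells, Trim56 1.11-fold and 1.30-fold, and Trim14 1.06-fold and 1.24-fold. Their intervals included 1 in library 1 and lay just above it in library 2. Trim26 stood at 75.4 and 71.2 CPM in library 1, and its levels in library 2 were 99.4 and 94.2 CPM. Trim5 was 1.15-fold higher in library 1 (0.853 to 1.56) and lower in library 2, at 21.7 and 16.1 CPM, 0.743-fold (0.562 to 0.979). Trim26 and Trim5 thus hold the motif near their starts and stood level or in opposite directions across the score.

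**Figure D2:**
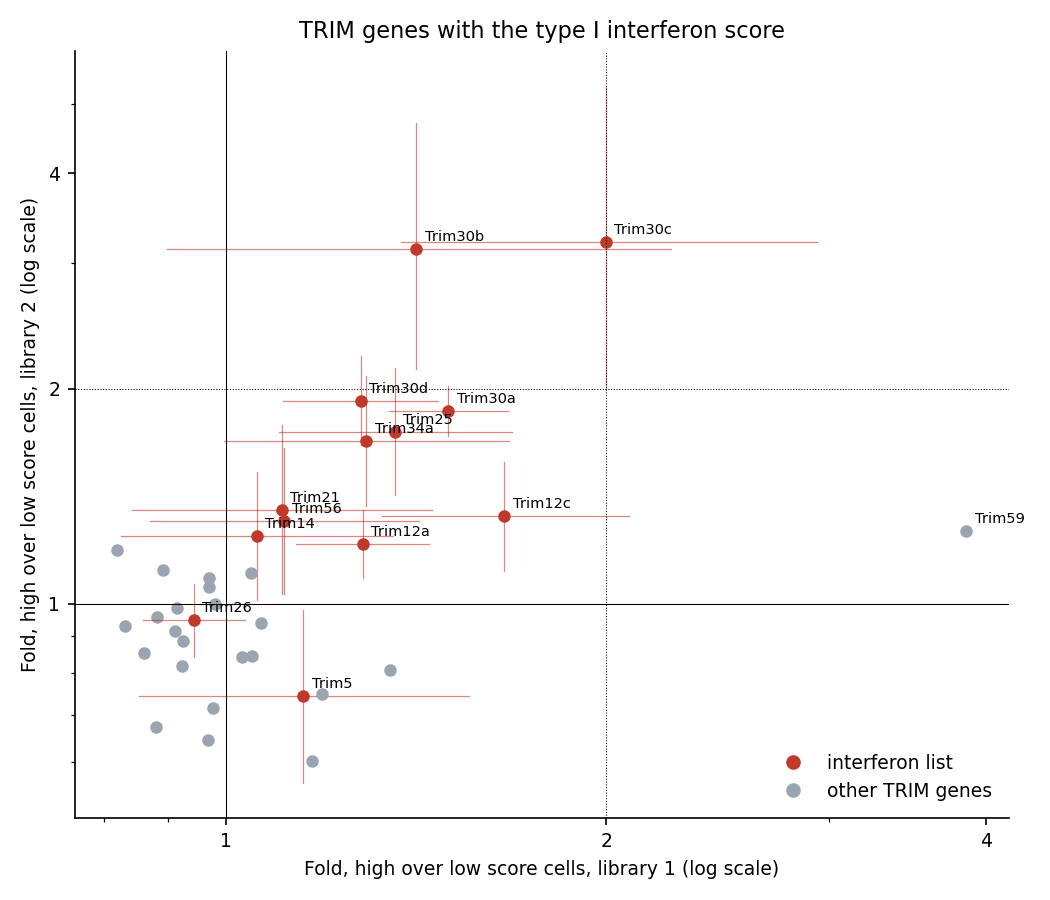
Fold of high over low type I score cells in library 1 (horizontal, log axis) and library 2 (vertical, log axis) for the 36 members tested in both, with 95% intervals for the interferon list (red); dotted lines mark 2-fold. The Trim30 copies, Trim25 and Trim34a lie to the upper right of the point of no change, Trim26 and Trim5 at or below it in library 2, and Trim59 stands alone at 3.86-fold in library 1.

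Trim59 had 11 and 42 UMIs in the low and high cells of library 1, 3.86-fold (1.95 to 8.31), and 30 and 37 in library 2, 1.26-fold (0.760 to 2.12). Genes of dividing cells moved with it: their 14-gene list summed to 49.3 and 212 CPM in library 1 and to 237 and 609 CPM in library 2. Without cells with 2 or more UMIs of that list, the log2 ratio of Trim59 in library 1 was 0.01 instead of 0.30. Macrophage markers also differed between the sets. They summed to 13.7 and 68.0 CPM in library 1, with 1 of 7 at 0 in the low cells, whereas library 2 had 12.1 and 8.04 CPM, with 1 and 3 of 7 at 0. Monocyte markers summed to 5.88 and 4.57 CPM in library 1, with 1 and 3 of 6 at 0, and to 47.4 and 121 CPM in library 2, where 2 of 6 were at 0 in each set. Median depths were 7331 and 7522 UMIs in library 1 and 9550 and 10219.5 in library 2. Without cells with 2 or more macrophage markers, the log2 ratio of Trim30a was 0.50 in library 1 and 0.86 in library 2, against 0.49 and 0.85 with them, and the counts of members past 2-fold were the same. The part of monocyte markers in the TRIM folds was not tested. Without cells with 2 or more UMIs of the division list, Trim30c kept 0.29 of a log2 ratio of 0.33 in library 1.

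Across finer steps of the score, Trim30a climbed in both libraries. In library 1 it stood at 45.1 CPM at a score of 0, 50.4 at 1, 67.1 at 2 to 3, 124 at 4 to 7, 170 at 8 to 15 and 336 CPM at 16 or more, the last from 12 cells. In library 2 the same steps gave 83.3, 118, 147, 176, 234 and 363 CPM, the first from 7 cells. Trim25 went from 12.4 to 84.0 CPM over the steps of library 1, and from 23.1 CPM at a score of 1 to 56.0 CPM at 16 or more in library 2. Trim21, Trim56 and Trim14 climbed at the upper steps of library 2. Between the step 4 to 7 and the step 16 or more, Trim21 went from 16.03 (13.2 to 19.3) to 28.5 CPM (21.7 to 36.6), and Trim56 from 22.6 (19.2 to 26.4) to 37.5 CPM (29.7 to 46.7). Trim14 went from 27.2 (23.5 to 31.4) to 40.8 CPM (32.6 to 50.4). Trim26 showed no such climb, with 57.3 to 81.8 CPM over the steps of library 1 and 91.1 to 125 CPM over those of library 2. The steps are cells of 1 library each and are not replicates.

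**Figure D3:**
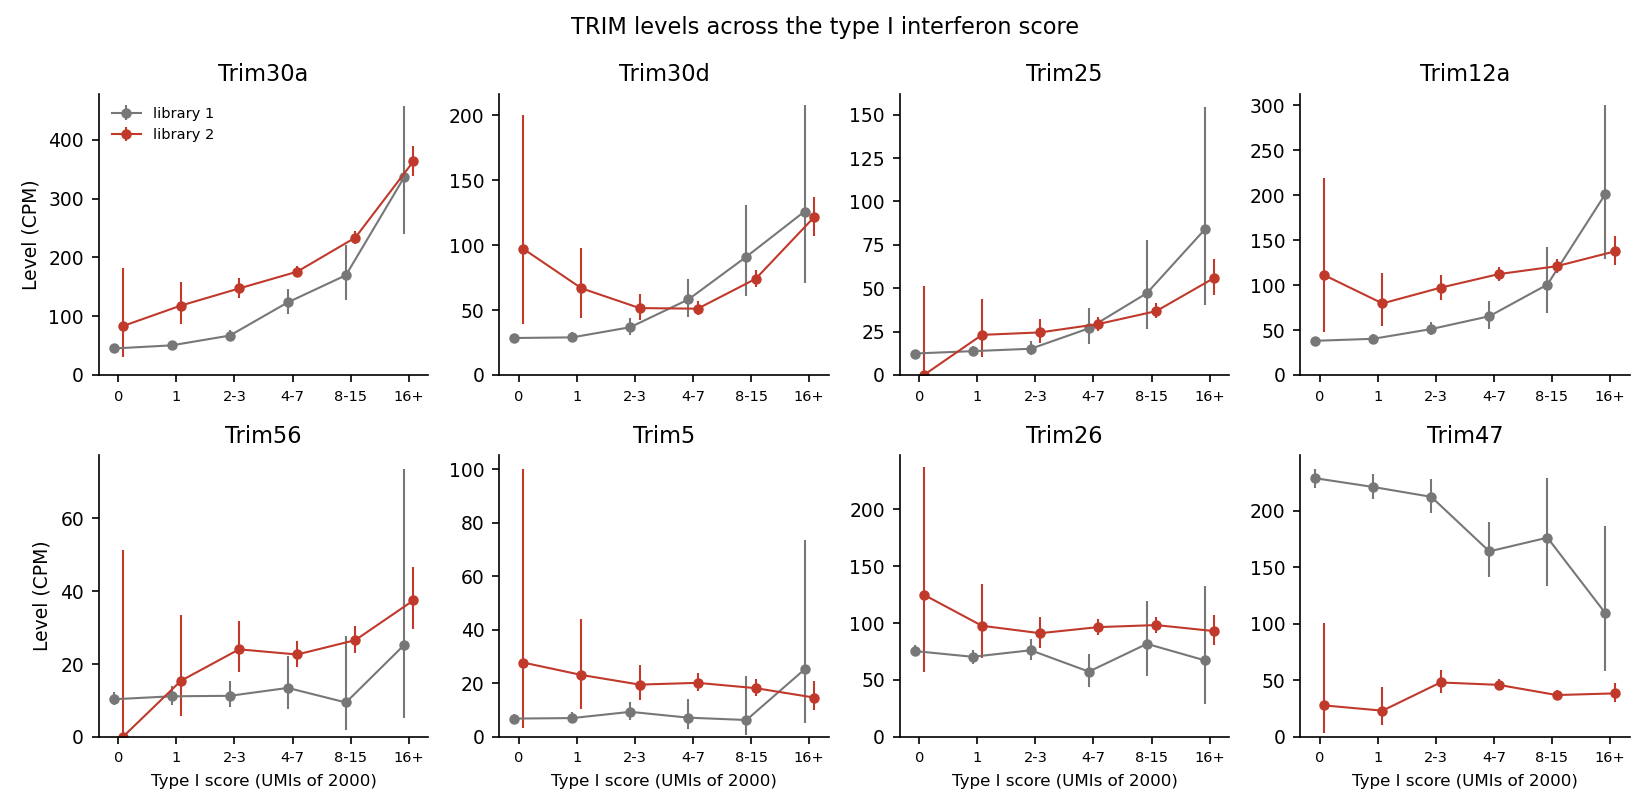
Level (CPM, linear axes from 0) of 8 TRIM genes in microglia-marker cells grouped by type I score (UMIs of 28 genes in 2000 UMIs), for library 1 (grey) and library 2 (red) with exact Poisson 95% intervals; the first step of library 2 holds 7 cells and the last of library 1 holds 12. Trim30a climbs in both libraries, Trim26 stays level, and Trim47 stays far higher in library 1 at every step.

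Within steps of the type I score, the median library fold of the listed members fell, but not every member followed. This comparison was added after the data were seen and uses the 4 steps with at least 20 cells in both libraries. The steps match the thinned count but not the type I level. At a score of 1 the score genes made up 400 CPM in library 1, against 1567 CPM in the other, and at 2 to 3 they made up 764 and 2208 CPM. At 4 to 7 they summed to 2100 and 3164 CPM, and at 8 to 15 to 5441 and 4850 CPM. The median fold of library 2 over library 1 over the 13 listed members was 2.51 in all kept cells. It was 2.22 at a score of 1, 1.90 at 2 to 3, 1.42 at 4 to 7 and 1.20 at 8 to 15. These medians fell along with the remaining gap in type I level, whose part in them was not tested. Over the members off the list with at least 20 UMIs in the step, the same medians were 0.93, 0.99, 1.04 and 0.96. The last median leaves out Trim59, Trim7 and Trim23, which had no UMI in library 1 at 8 to 15 and 39, 59 and 53 UMIs in library 2. Ranked as the highest folds, they would place it between 1.16 and 1.26, the folds of Trim27 and Trim28. The listed and other members are therefore not set apart at that step. The number of the 13 listed members at least 2-fold higher in library 2 did not fall steadily. It was 7 at a score of 1, 5 at 2 to 3, 1 at 4 to 7 and 4 at 8 to 15. Off the list it was 3 of 23, 2 of 21, 2 of 23 and 1 of 22. The 1 of 22 does not count Trim59, Trim7 and Trim23, which were higher in library 2 from a count of 0 in library 1. Their intervals all included 1. The share over all genes is not given for these steps.

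Trim30a, 3.75-fold in all cells, was 2.34-fold at a score of 1, 2.20-fold at 2 to 3, 1.42-fold (1.19 to 1.71) at 4 to 7 and 1.38-fold (1.05 to 1.84) at 8 to 15. Trim25 was 1.09-fold (0.742 to 1.66) and Trim30d 0.878-fold (0.672 to 1.16) at 4 to 7. Trim34a was 1.03-fold there (0.704 to 1.56) but 2.72-fold at 8 to 15 (1.05 to 10.1), on 4 and 254 UMIs. Trim30c was lower in library 2 at 4 to 7, 0.356-fold (0.180 to 0.747), on 13 and 29 UMIs. At the same step Trim12a was 1.72-fold (1.35 to 2.21), Trim12c 1.97-fold (1.28 to 3.15), Trim14 1.90-fold (1.14 to 3.39) and Trim5 2.82-fold (1.39 to 6.65). Trim26 was 1.68-fold there (1.30 to 2.21). At 8 to 15, with 30 cells of library 1, Trim12a was down to 1.20-fold, Trim12c to 1.16-fold and Trim14 to 1.45-fold, near the 1.38-fold of Trim30a. Trim5 was 2.89-fold there, on 2 and 135 UMIs. Trim56 and Trim21 were higher there than at a score of 1, each on 3 UMIs of library 1. Trim56 was 1.38-fold at a score of 1 and 2.82-fold at 8 to 15, and Trim21 1.36-fold and 2.17-fold. The intervals of Trim12a, Trim12c, Trim14, Trim5, Trim56, Trim21 and Trim26 at 8 to 15 all included 1. Trim47 remained lower in library 2 at every step, by 9.55-fold, 4.41-fold, 3.57-fold and 4.77-fold. Interferon gamma genes were far from equal at 4 to 7: their sum was 4381 CPM in library 1, against 19203 CPM in the other.

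**Figure D4:**
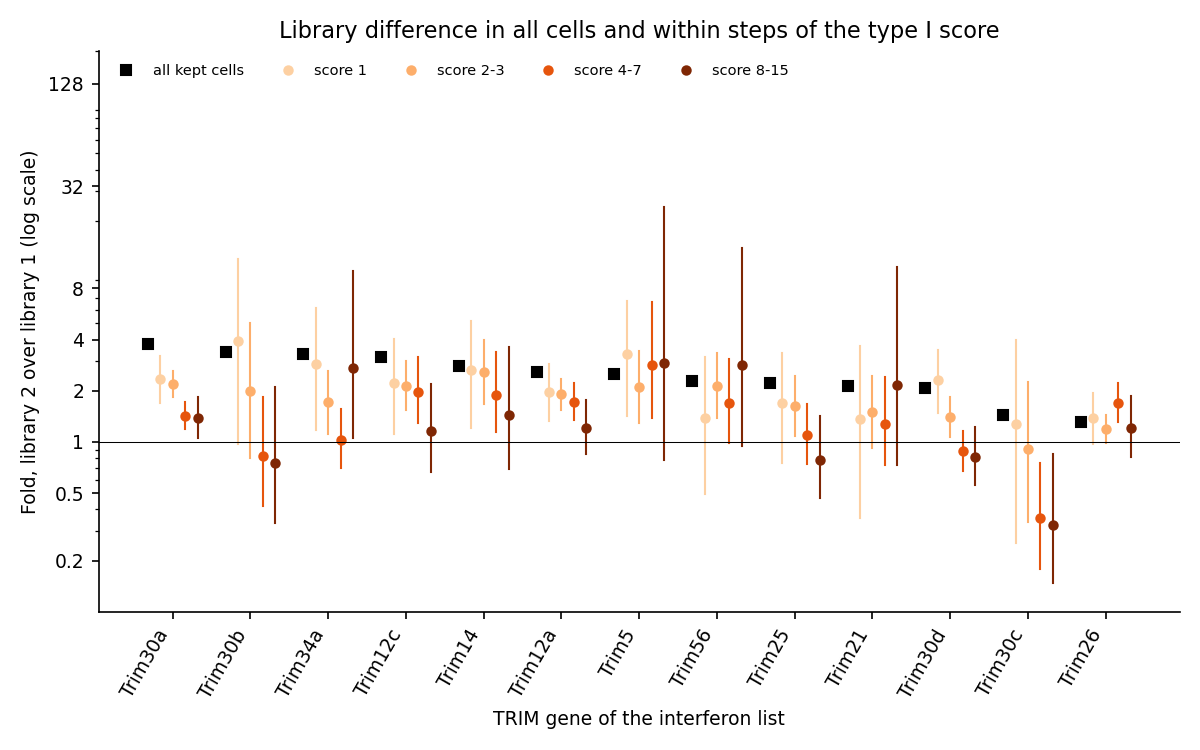
Fold of library 2 over library 1 (log axis) for the 13 members of the interferon list, in all kept cells (black squares) and in microglia-marker cells of the same step of the type I score (coloured points, 95% intervals), whose type I level still differed, by 400 against 1567 CPM at a score of 1. For Trim30a, Trim30d, Trim25 and Trim30b the points move towards or past 1 as the score goes up, whereas those of Trim5 stay near or above 2.

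A second score counted 23 genes of the interferon gamma response and MHC class II. Its own genes, ranged by the part of the list they were not in, had median folds of 2.13 and 1.47, lower than those of the type I genes, and the listed TRIM members had medians of 1.17 and 1.05. Whether the TRIM genes go less with this score than with the type I score was not tested. No member was at least 2-fold higher in the high cells of either library, against 1.79% and 0.917% of all genes. In the lower direction there was none in library 1 and 1 in library 2, Trim59 at 0.454-fold (0.234 to 0.846), against 0.557% and 1.98%. The score genes summed to 692 CPM in the low and 2985 CPM in the high cells of library 1, and to 6334 and 35313 CPM in those of library 2. Trim30a was 1.31-fold (1.16 to 1.48) and 1.05-fold (0.958 to 1.15) higher in the high cells. Trim30d reached 1.32-fold in library 2 (1.12 to 1.56) and Trim21 1.38-fold (1.02 to 1.88), whereas Trim25 was lower there, at 39.5 and 29.4 CPM. In library 1 the type I score also differed between these sets, at 367 and 817 CPM, and in library 2 it did not, at 4365 and 4437 CPM. The gamma score genes in turn summed to 1236 and 2064 CPM in the low and high type I cells of library 1. In those of library 2 they summed to 19746 and 19300 CPM. The part of the gamma score in the type I folds of library 1 was not tested.

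Cells above the median of the type I score and at most at the median of the gamma score were then set against the reverse. In library 2 (431 against 453 cells), 3 of 35 members tested were at least 2-fold higher on the type I side, against 2.24% of all genes. They were Trim30c at 3.48 and 11.2 CPM, 3.22-fold (1.83 to 5.92), Trim30b at 7.78 and 18.2 CPM, 2.33-fold (1.58 to 3.52), and Trim59, 2.18-fold (1.20 to 4.15). Trim25 was 1.64-fold, Trim30a 1.57-fold, Trim30d 1.48-fold and Trim34a 1.45-fold higher on that side, with all 4 intervals above 1. In library 1 (923 against 561 cells), Trim59 alone was past 2-fold, of 38 tested and against 2.05% of all genes. No member was at least 2-fold higher on the gamma side in either library, against 0.499% and 0.801%.

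A stress score of 21 immediate early and heat shock genes served as a contrast. In library 1 no member was at least 2-fold higher in stressed cells, against 0.519% of all genes, and Trim59 was lower, 0.216-fold, against 3.78%. In library 2 Trim47 was higher, at 26.7 and 55.4 CPM, 2.08-fold (1.66 to 2.60), against 2.31%, and Trim37 was lower, 0.384-fold, against 1.83%. Trim47 also stood higher in the stressed cells of library 1, at 188 and 268 CPM, 1.42-fold (1.32 to 1.54). Trim8 was 1.13-fold and 1.53-fold higher. The stress genes summed to 66235 CPM in all kept cells of library 1 and 25429 CPM in those of library 2. Trim47 and the stress genes were thus both higher in library 1. Trim47 was also higher in the stressed cells of each library, which were chosen by those genes. Any link between Trim47 and the stress genes was not tested. The listed members had median folds of 0.92 and 1.10.

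Trim66 was found almost only in another kind of cell, and a few other members had higher levels there. Cells with at least 3 olfactory neuron markers and at most 2 microglia markers numbered 13 in library 1 and 37 in library 2. Trim66 (ENSMUSG00000031026), a relative of the chromatin cofactors with a known role in sperm and in the nose, had 64 UMIs in these cells of library 2, 135 CPM (104 to 172), and 2 UMIs in 1750 microglia-marker cells. The ratio was 1277-fold (339 to 10772), and 29 of 37 neuron-marker cells (78.4%) had a UMI against 0.114% of the microglia-marker cells. In library 1 Trim66 had 15 UMIs in the neuron-marker cells and none in 3281 microglia-marker cells, at least 1236-fold higher against the level that 3 UMIs would make. Of its 16 and 73 UMIs in the libraries, 15 and 64 lay in the 13 and 37 neuron-marker cells, so its 5.80-fold library difference was not one between microglia-marker cells.

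Trim45 (ENSMUSG00000033233) stood at 98.9 CPM in neuron-marker cells of library 2 against 1.53 CPM in microglia-marker cells, 64.7-fold (39.9 to 107), and at 118 against 1.99 CPM in library 1, where 50 of its 64 UMIs still lay in microglia-marker cells. Trim37 stood at 52.6 against 5.43 CPM, Trim24 at 98.9 against 15.3 CPM and Trim2, a neuronal ubiquitin ligase, at 105 against 17.9 CPM in library 2. The interferon-listed copies had counts at or near 0 in the neuron-marker cells. Trim30a had 1 UMI in them in library 2 and none in library 1, and Trim12a, Trim12c, Trim30b, Trim30c, Trim30d, Trim34a, Trim5 and Trim14 had none in either. In library 1 a count of 0 in so few cells allows up to 29.5 CPM. Trim30b, Trim30c, Trim5, Trim34a, Trim14 and Trim12c stood below that in all its kept cells, at 3.42 to 13.8 CPM. Their counts of 0 in library 1 therefore show no difference. In library 2 a count of 0 allows up to 6.31 CPM, against 116 CPM for Trim12a and 68.5 CPM for Trim30d in microglia-marker cells. Trim30c and Trim30b lay nearer that limit, at 7.30 and 11.5 CPM in the kept cells of library 2. The neuron-marker cells also had little of the type I score, 366 CPM against 4455 CPM. Trim26 was detected in both, at 42.1 and 96.4 CPM. In 12 epithelial-marker cells of library 1, Trim44 stood at 149 CPM against 55.4 CPM in microglia-marker cells and Trim25 at 38.2 against 14.6 CPM. No count over members is given for these small classes, because only genes high in them reach 10 UMIs: 50.3% of all genes that did in neuron-marker cells of library 2 were at least 2-fold higher there.

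**Figure D5:**
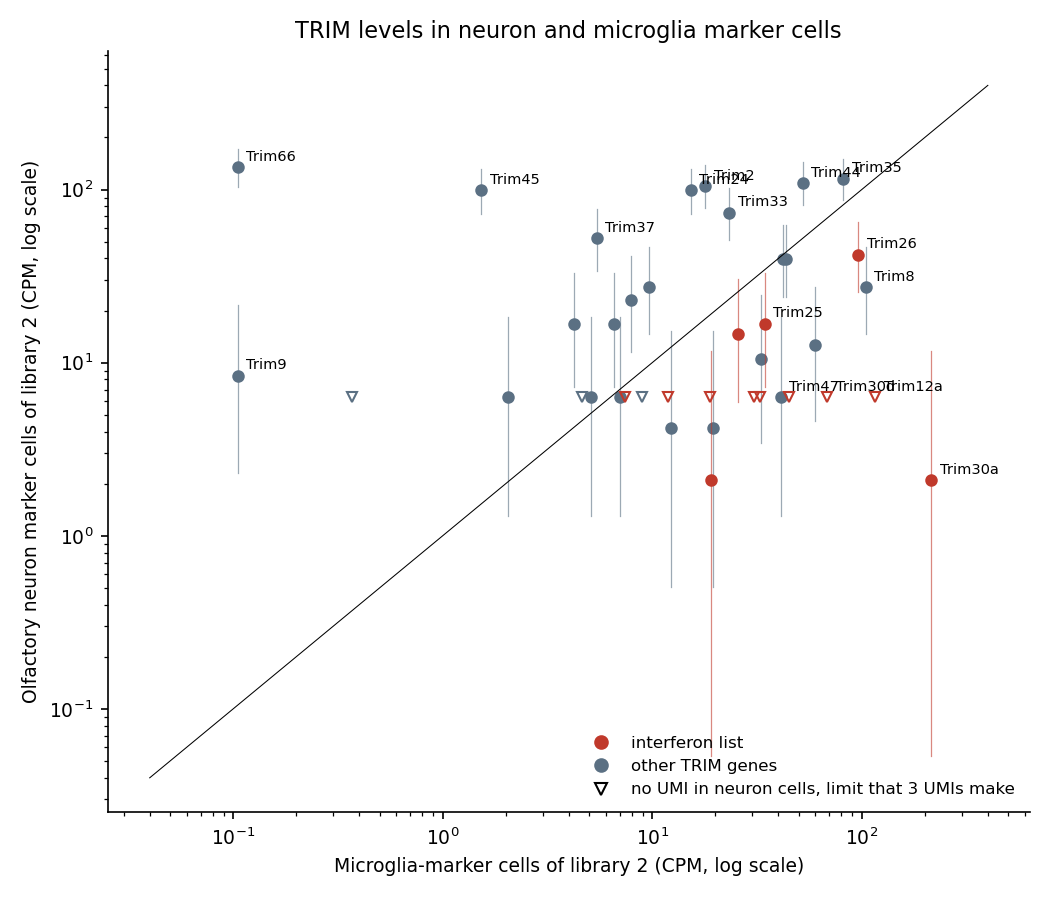
Level in olfactory neuron marker cells (vertical, CPM, log axis, 95% intervals) against level in microglia-marker cells (horizontal, CPM, log axis) of library 2 for the TRIM members, the interferon list in red; open triangles mark members without a UMI in neuron-marker cells, drawn at the 6.31 CPM that 3 UMIs make. Trim66 and Trim45 lie far above the line of equal levels, and Trim30a, Trim12a and Trim30d far below it.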

How the data were processed

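The authors deposited 1 matrix of raw UMI counts per gene and barcode, whole numbers over both libraries, whose file headers record Cell Ranger (software 3.1.0, format 2). Per the submitters' processing notes, bcl2fastq and UMI-tools were used too. For aligner, build and annotation, "not given in the sources used here" applies. Values were computed with Python 3.11.15, NumPy 2.4.6, SciPy 1.17.1 and pandas 2.3.3, and figures with matplotlib 3.10.9.

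UMIs were summed per set of cells and divided by the set's total (CPM), with exact Poisson intervals for levels, exact conditional binomial intervals for folds and exact binomial intervals for shares, all at 95%. A gene counted as tested with at least 20 UMIs over all barcodes in the library comparison, over both sets in the score comparisons, and 10 in the class for cell classes, and as called at 2-fold. Folds carry no pseudocount and log2 ratios one of 10 CPM. Score sets were cells at or above the 75th and at or below the 25th percentile. In library 1, where the lower limit of the type I score and most cells stood at 0, the high set was all cells above it. No doublets were removed. The comparison code was tested on simulated counts.

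Named members were those on the interferon list, those past 2-fold with the type I score, the 5 highest in CPM in either library, the 5 with the largest log2 ratio and, per cell class, the 2 with the largest fold over microglia-marker cells. The members and lists were chosen with earlier results of these data known. EAE and healthy mice were not compared, since the libraries could not be mapped.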

Additional observations from a re-analysis of the deposited data

Results flagged for a closer look

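TRIM transcripts also occurred in barcodes that no comparison used. The 432 barcodes of library 1 left out by the cell filter held 159 TRIM UMIs, 316 CPM against 1138 CPM in kept cells. The 512 left out in library 2 held 342, 345 CPM against 1311 CPM. With these barcodes included, 14 members instead of 15 were at least 2-fold higher in library 2. No group had the 4 to 10 samples that a search for samples far from the others needs.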

How the results depend on the processing

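No paired analysis was possible because each side of the design is 1 library. In the library comparison, 14 or 15 members were at least 2-fold higher in library 2, or 21 symbols when any UMI sufficed, where 8 instead of 2 were lower. The share of all genes past 2-fold is not given for the alternative settings here and below. Changes in these counts are therefore not read as particular to the TRIM members. The median log2 ratio of 0.17 became 0.37 with a pseudocount of 1 CPM, 0.23 without mitochondrial, ribosomal protein and haemoglobin genes in the totals, 0.12 in microglia-marker cells and 0.02 with any UMI.

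Counts within libraries were small and moved with most settings. The first counts are of members at least 2-fold higher with the type I score. Library 1 had 2 without the 5% of cells with most UMIs and 2 in all kept cells. It had 5 with sets cut at the top and bottom 10% of the score (outer 10% sets). It had 0 with the second part of the list or without dividing cells (2 or more UMIs of the division list). An outer 10% set holds all cells tied at its limit and can exceed 10%. For the type I score in library 1, its low set was still the 1669 cells with a score of 0, and only the high set changed. Library 2 had 6 with the outer 10% sets, 1 thinned to 1000 UMIs, 5 thinned to 4000 and 4 in all kept cells, where 3 were lower. In both libraries together the count was 3 with the outer 10% sets (Trim30a, Trim30b and Trim30c), 1 without the 5% deepest cells and 1 in all kept cells, both Trim30c, and 0 under the other 6 settings. Trim59 changed direction in library 1 with the second part of the list (log2 ratio -0.14), and the log2 ratio of Trim30c there went from 0.33 to 0.06 when thinned to 1000 UMIs. The list was split in 2 parts for this.

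With the gamma score, library 1 had 2 members higher with the outer 10% sets, and 2 higher and 1 lower thinned to 1000 UMIs. Library 2 had 1 higher with the outer 10% sets. Its 1 lower member became 0 without the 5% deepest cells, with the outer 10% sets, thinned to 1000 or 4000, with either part of the list and without dividing cells, and 5 in all kept cells. Trim59 there turned to a log2 ratio of 0.14 with the outer 10% sets. With the stress score, library 1 had 2 lower members thinned to 1000 or 4000 UMIs or with the first part of the list, 3 in all kept cells and 0 without dividing cells. Library 2 had 0 higher without the 5% deepest cells, and 2 with the second part of the list or without dividing cells. Its lower members numbered 0 with the outer 10% sets, thinned to 1000 or with the first part, 4 in all kept cells and 2 without dividing cells. The cause of these shifts was not tested.

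With under 100 UMIs in each set of library 1, Trim30b and Trim30c had intervals that span 2-fold there, and detection in single cells is shallow, with medians of 8 and 13 TRIM UMIs per cell.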
